A study of Oryza sativa with 12 samples.

Results

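Leaves of the untransformed rice cultivar Kitaake were compared with leaves of the untransformed cultivar Nipponbare, 3 libraries each of the 12 in the series. Both are japonica cultivars of Oryza sativa; Kitaake is an early, short-season line that is often transformed, and Nipponbare is the cultivar from which the rice reference genome was built. The Kitaake plants served the study as wild type of OsbZIP62V, a transgenic line (OE1) of Kitaake origin that carries the OsbZIP62 coding sequence joined to the VP64 activation module, and the Nipponbare plants as wild type of osbzip62, a CRISPR mutant line (C54) made in Nipponbare. All 4 groups were seedlings at the four-leaf stage, grown in culture solution with 16 h of light at 28 °C and 8 h of dark at 24 °C, and each replicate was a pool of plants. No label names the promoter of the transgene, a growth batch, a sequencing run or the hour of sampling, so whatever differed between the 2 wild-type sowings besides genotype cannot be told apart from cultivar. Genes were kept when they passed edgeR's filter on low counts in these 6 libraries, which left 19749 of the 35679 genes in the tables.

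Reads were counted on 1 genome, the Nipponbare build IRGSP-1.0. A Kitaake read from a diverged or missing copy of a gene can be lost there, so a low count in Kitaake can mean less RNA or a changed gene. The part of alignment in the differences given here was not tested. The tables name genes by identifiers without symbols, and 2892 of them were paired with loci through the study's own lists of genes that differed between a line and its wild type. Those lists were drawn from these same Kitaake and Nipponbare libraries, so counts over named genes are not independent evidence of a direction. Members of annotation families (WRKY53, the heat shock, P450, peroxidase and terpene synthase genes, ascorbate peroxidase 2, and the LHY-like, NAC, OsACO2 and phosphoethanolamine methyltransferase genes) were chosen for mention after their values were seen.

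Leaves of a young rice seedling hold expanded mesophyll, whose chloroplasts carry light-harvesting antenna proteins around photosystems I and II, and vascular strands and young tissue, where primary walls are loosened by expansins and secondary walls are built by cellulose synthases. Genes of these 2 programmes, and those of stress and hormone responses, follow leaf age, light and hour of day. Disease-resistance and receptor kinase genes are known to vary in presence and sequence between rice cultivars.

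The total count per library ranged from 9224755 to 19759728 in Kitaake and from 16917303 to 18226331 in Nipponbare, and 22922 to 25994 genes had at least 1 count. Kitaake libraries resembled each other more than Nipponbare libraries did, with Spearman correlations over genes of 0.975 to 0.982 in Kitaake and 0.871 to 0.940 in Nipponbare. Nipponbare replicates 1 and 3 were the least alike pair. Replicate 3 lay closest to Kitaake, with a mean correlation of 0.919, against 0.880 for replicate 2 and 0.812 for replicate 1. With the other Nipponbare libraries the mean for replicate 3 was lower, at 0.905. Nipponbare replicate 1 had a correlation of 0.937 with OsbZIP62V replicate 3, against 0.871 to 0.939 within its own group. The libraries were thus not ordered by cultivar alone. The level of LHCB2, a mesophyll antenna gene, was in keeping with the leaf label. LHCB2 was present at 1750 to 2118 CPM (counts scaled to a common library size) in Kitaake and 6011 to 9203 CPM in Nipponbare. CAB2R, the other mesophyll marker that could be paired, was far lower in Kitaake (log2 fold change -7.93), as given below. No marker of dividing cells or of roots could be paired with an identifier.

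A gene was called when edgeR's quasi-likelihood test gave a Benjamini-Hochberg adjusted p under 0.05 and a difference over 1 on the log2 scale. In Kitaake 1353 genes were higher and 1661 were lower, which is 6.85% and 8.41% of those tested, or 15.3% together. The median log2 fold change was 1.73 among the higher genes and -2.24 among the lower ones, and -0.04 over all genes tested. The 3 Kitaake libraries lay wholly above the 3 Nipponbare libraries in 3861 genes and wholly below in 3871 (19.6% each). Differences over 32-fold were found for 74 higher and 250 lower genes. The counts depended on single libraries. Without Nipponbare replicate 3 there were 1801 higher and 3113 lower genes, without Kitaake replicate 1 889 and 684, without Kitaake replicate 2 597 and 513, without Kitaake replicate 3 768 and 607, and without Nipponbare replicate 2 1089 and 1037. With each library left out in turn, 559 of the higher genes (41.3%) and 443 of the lower genes (26.7%) kept their call, and no called gene changed sign. Among the 2131 tested genes with a locus, 17.5% were called higher and 32.8% lower. Those shares are the background for every count of named genes that follows, but they depended on the list a gene was paired through. Of 1191 tested genes listed only for OsbZIP62V against Kitaake, 16.4% were higher and 41.4% lower. Of 776 listed only for osbzip62 against Nipponbare, 19.6% were higher and 18.4% lower. Of 17618 tested genes without a locus, 5.57% were higher and 5.45% lower. All 11 expansin genes, 9 of 10 cell wall genes and 6 of 8 light-harvesting genes were on the OsbZIP62V list only.

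Most of the light-harvesting antenna genes that could be named were lower in Kitaake than in Nipponbare. Antenna genes on neither list of the study could not be named and are not among them. Of 8 tested genes annotated as light-harvesting proteins, 6 were called lower and none higher, with a median log2 fold change of -2.96. The other 2, LOC_Os02g52650 (-0.54, adjusted p = 0.15) and LOC_Os09g26810 (-1.18, adjusted p = 0.10), were not called. The 6 called genes were also all the tested members of a list of 17 photosynthesis genes (median -3.68). LHCB2 had 2118, 2042 and 1750 CPM in Kitaake, against 6426, 9203 and 6011 CPM in Nipponbare. CAB2R, another protein of the main antenna of photosystem II, had 21.6, 16.2 and 13.8 CPM in Kitaake, against 4253, 7896 and 361 CPM in Nipponbare. The groups did not overlap for either gene, but the Nipponbare libraries spread far more for CAB2R, with replicate 3 lowest. The log2 fold change was -1.88 ± 0.30 (SE) for LHCB2 (adjusted p = 0.0057) and -7.93 ± 1.14 for CAB2R (adjusted p = 0.0038). LHCB1.3, of the same antenna, followed CAB2R, with 8.15, 8.94 and 5.07 CPM in Kitaake and 1539, 5967 and 74.7 CPM in Nipponbare. Its log2 fold change was -8.44 ± 1.52 (adjusted p = 0.0089).

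The minor antenna proteins CP29 (LHCB4) and CP24 (LHCB6), which link the main antenna to the photosystem II core, had log2 fold changes of -3.01 ± 0.36 (adjusted p = 0.0020) and -4.35 ± 0.45 (adjusted p = 0.0011). LHCA1, an antenna protein of photosystem I, had 347, 317 and 295 CPM in Kitaake, against 1981, 3088 and 2067 CPM in Nipponbare. Photosystem I subunit O (LOC_Os04g33830) had 594, 556 and 553 CPM in Kitaake, against 2520, 4042 and 2783 CPM in Nipponbare. For both genes every Nipponbare library lay above every Kitaake library, by less than a factor of 2 among themselves. The summed level of these 6 called antenna genes was 2482 to 2846 CPM in Kitaake and 11110 to 32570 CPM in Nipponbare. In pooled leaf tissue, fewer cells of a type and less RNA per cell cannot be told apart. LHCB2 lost its call without Kitaake replicate 2 or replicate 3 (adjusted p up to 0.057), and LHCB1.3 without any 1 of the Kitaake libraries (up to 0.0725).

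Both tested enzymes that turn protochlorophyllide into chlorophyllide under light were lower in Kitaake. Of these 2 genes, 1 was on the OsbZIP62V list only and 1 on both lists. PORB had 40.3, 30.6 and 36.5 CPM in Kitaake, against 232, 200 and 127 CPM in Nipponbare (log2 fold change -2.38 ± 0.26, adjusted p = 0.0013). PORA, the form of etiolated and very young tissue, had 0.679, 0.559 and 0.398 CPM in Kitaake, against 443, 86.9 and 2.19 CPM in Nipponbare. Nipponbare replicate 3 was close to Kitaake for PORA and well above it for PORB. The log2 fold change of PORA was -8.40 ± 1.81 (adjusted p = 0.017), and the call was lost without any 1 of the Kitaake libraries, with adjusted p up to 0.106.

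**Figure D1:**
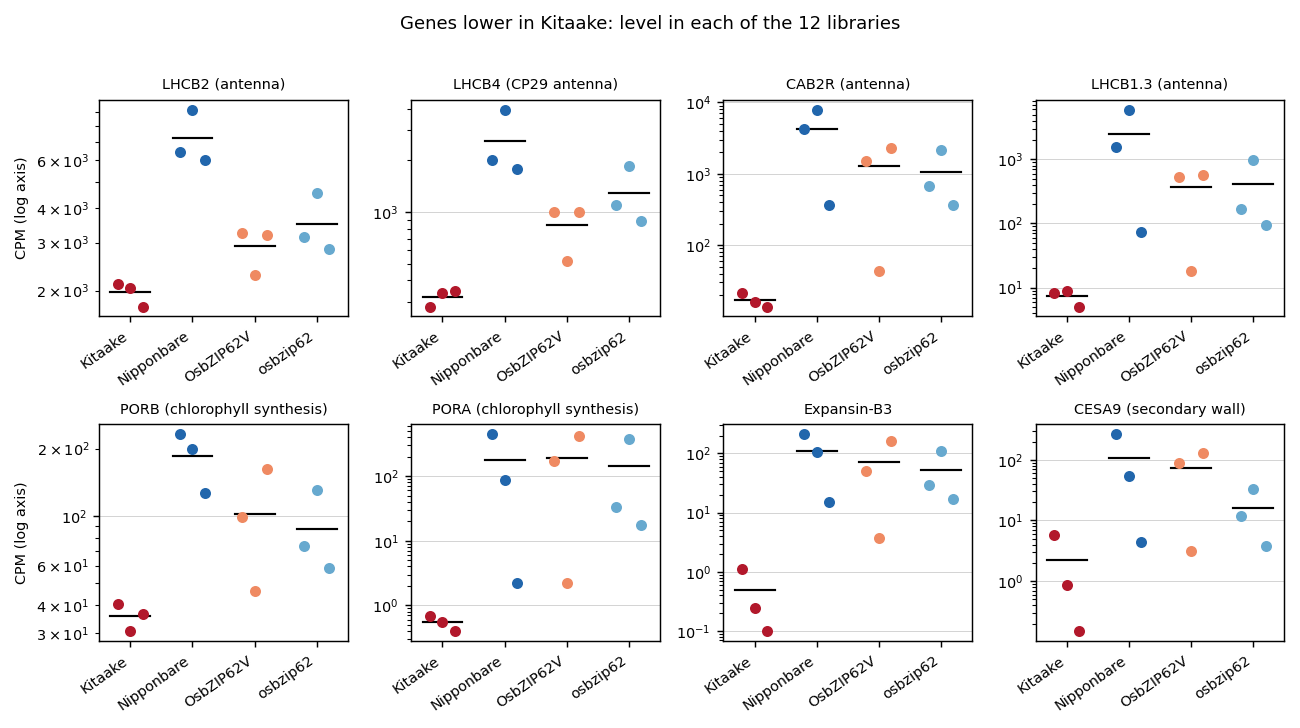
Level in CPM, on a log axis, of 8 genes that were lower in Kitaake, with 1 point per library, replicates 1 to 3 from left to right and a bar at the mean of each group. LHCB2, LHCB4 and PORB vary less within each wild type. CAB2R, PORA, Expansin-B3 and CESA9 reach their lowest Nipponbare level in replicate 3 (361, 2.19, 15.4 and 4.44 CPM), as do LHCB1.3, LHCB2 and PORB.

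Of 11 genes annotated as expansins, which loosen the wall of growing cells, 6 were tested, 5 were called lower and none higher, with a median log2 fold change of -7.71. The remaining gene, LOC_Os10g39640, had a log2 fold change of 0.64 (adjusted p = 0.43). Expansin-B3 (LOC_Os10g40720) had 1.13, 0.248 and 0.0995 CPM in Kitaake, against 210, 105 and 15.4 CPM in Nipponbare. Expansin-A4 (LOC_Os05g39990) had 0.679, 0.0621 and 0 CPM in Kitaake, against 78.9, 58.03 and 5.06 CPM in Nipponbare. Expansin-A2 (LOC_Os01g60770) had 0.3397, 0.124 and 0.348 CPM in Kitaake, against 144, 50.8 and 6.29 CPM in Nipponbare. In all 3 the order of the Nipponbare libraries was the same, replicate 1 highest and replicate 3 lowest. The log2 fold changes were -8.13 ± 1.21 (adjusted p = 0.0043), -8.09 ± 1.37 (adjusted p = 0.0071) and -7.94 ± 1.28 (adjusted p = 0.0060). Each lost its call without Kitaake replicate 2, and the A4 and A2 genes also without Kitaake replicate 3, with adjusted p up to 0.068. The number of expansins called lower was 0 without Kitaake replicate 2, 1 without Kitaake replicate 3 and 8 without Nipponbare replicate 3.

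Of the 10 tested cell wall genes, 6 were called lower and none higher, with a median log2 fold change of -4.47. CESA9, a cellulose synthase of the secondary wall, had 5.77, 0.869 and 0.149 CPM in Kitaake, against 262, 53.9 and 4.44 CPM in Nipponbare. The lowest Nipponbare library lay below the highest Kitaake library, so these groups overlapped. The log2 fold change was -5.78 ± 1.63 (adjusted p = 0.043). The partner subunit CESA7 was called as well (-5.62 ± 1.64, adjusted p = 0.048), and the third subunit CESA4 missed the threshold (-5.41 ± 1.60, adjusted p = 0.0505). MYB61, an activator of secondary wall cellulose synthases, had 0.3397, 0.186 and 0.0995 CPM in Kitaake, against 73.1, 6.08 and 1.16 CPM in Nipponbare (adjusted p = 0.026). Also called lower were BC1, a COBRA-like protein of the wall (log2 fold change -5.09), the NAC regulator SWN2 (-3.85) and PAL1, the entry enzyme of phenylpropanoid synthesis (-3.55). The lignin genes 4CL3, CAD2 and F5H were not called (adjusted p from 0.083 to 0.30). All 6 calls were lost in at least 1 fit without a single library: 10 of the 10 genes were called lower without Nipponbare replicate 3, 1 without Nipponbare replicate 1, 1 without Nipponbare replicate 2, 1 without Kitaake replicate 1, and 0 without Kitaake replicate 2 or Kitaake replicate 3. The summed level of the 10 genes was 146 to 213 CPM in Kitaake and 3095, 1686 and 132 CPM in Nipponbare replicates 1 to 3, so replicate 3 lay below every Kitaake library.

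All 3 tested sugar genes were lower in Kitaake. Of the 4 paired sugar genes, 3 were on the OsbZIP62V list only and 1 on both lists, where 41.4% and 39.0% of tested genes were lower. SUS1, a sucrose synthase, had 6.001, 1.37 and 3.18 CPM in Kitaake, against 611, 22.1 and 8.48 CPM in Nipponbare, where replicate 1 stood far above the others. Its log2 fold change was -5.98 ± 1.67 (adjusted p = 0.042, and up to 0.18 without any 1 of the Kitaake libraries). LOC_Os02g01590, annotated as similar to a fructosyltransferase, was evenly low, with 8.95, 15.6 and 13.9 CPM in Kitaake, against 66.4, 79.9 and 53.7 CPM in Nipponbare (-2.38 ± 0.25, adjusted p = 0.0013). The sucrose exporter SWEET13 had 35.4, 40.2 and 29.7 CPM in Kitaake, against 177, 207 and 58.9 CPM in Nipponbare (-2.08 ± 0.43, adjusted p = 0.014, and up to 0.093 without any 1 of the Kitaake libraries).

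Among the largest decreases with an annotated function, a GDSL lipase (LOC_Os06g06250) had 1 count over the Kitaake libraries, at 0.113, 0 and 0 CPM, against 338, 3.95 and 2.46 CPM in Nipponbare. Its level over the group was 5687-fold lower in Kitaake, with a 95% interval from counting error of 1020 to 224667, but 1 Nipponbare library carried nearly all of it. An RNase T2 family gene (LOC_Os09g36700) had 3 counts over the Kitaake libraries, against 32.2, 160 and 2.80 CPM in Nipponbare, a 993-fold lower level (339 to 4816). Both lost their call without any 1 of the Kitaake libraries (adjusted p up to 0.15 and 0.076). LOC_Os04g48930, similar to a protein named only by its clone, had no count in Kitaake, against 8.30, 10.6 and 3.69 CPM in Nipponbare, at least 115-fold lower when 3 counts are allowed over the Kitaake group.

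Of 4 tested terpene synthase genes, which make volatile and defence terpenes, 3 were called lower (median log2 fold change -4.05), and at least 3 with any 1 library left out. The sesquiterpene synthase-like gene LOC_Os08g07080 had 7.13, 15.2 and 4.58 CPM in Kitaake, against 309, 131 and 177 CPM in Nipponbare (-4.53 ± 0.53, adjusted p = 0.0017). Of 29 cytochrome P450 genes, 12 were lower and 1 was higher, with a median log2 fold change of -1.37. They included CYP85A1 (LOC_Os03g40540), which makes brassinosteroids and had 3.74, 2.86 and 2.69 CPM in Kitaake, against 17.5, 8.03 and 9.85 CPM in Nipponbare. Its adjusted p was 0.0083, and 0.064 at most without Kitaake replicate 2 or 3. The number of P450 genes called lower was 27 without Nipponbare replicate 3, 7 without Nipponbare replicate 2, 5 without Kitaake replicate 1 and 4 without Kitaake replicate 2 or replicate 3. Of 21 peroxidases, 10 were lower and 3 higher. The higher count was 1 without Kitaake replicate 1 or replicate 2. Their lower count was 18 without Nipponbare replicate 3, 6 and 4 without Nipponbare replicates 1 and 2, 1 without Kitaake replicate 1 and 0 without Kitaake replicate 2 or replicate 3. Of the paired genes, 29 of 45 P450 genes and 20 of 32 peroxidases were on the OsbZIP62V list only, where 41.4% of tested genes were lower. Neither family was tested against that share or against the 32.8% of all genes with a locus.

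Ferritins had the highest level among the annotated genes that were higher in Kitaake. FER1 had 3180, 3715 and 3565 CPM in Kitaake, against 663, 805 and 690 CPM in Nipponbare. FER2 had 2909, 3474 and 3263 CPM in Kitaake, against 654, 723 and 534 CPM in Nipponbare. Ferritin stores iron in the plastid, and every Kitaake library stood well above every Nipponbare library. The log2 fold changes were 2.27 ± 0.23 and 2.33 ± 0.24 (adjusted p = 0.0011 for each), and both calls stood with every library left out. The 2 genes, on chromosomes 11 and 12, are near-identical copies, and how shared reads were assigned is unknown here, so their 2 values are uncertain as separate measurements. IRO2, a transcription factor of iron uptake known to rise under iron shortage, went the other way, with 0.453, 0.869 and 0.597 CPM in Kitaake, against 48.5, 22.4 and 1.57 CPM in Nipponbare (-5.19 ± 1.12, adjusted p = 0.017, and not called without any 1 of the Kitaake libraries, with adjusted p up to 0.10). Those were the 3 tested members of a list of 7 iron genes.

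The WRKY transcription factors that could be named, a family that acts in defence and stress responses, were higher or not called. Of 15 tested, 5 were called higher and none lower, with a median log2 fold change of 0.54. Of the 19 paired WRKY genes, 11 were on the osbzip62 list only, where 19.6% of tested genes were higher and 18.4% lower. The WRKY count was not tested against these shares. WRKY24 had 279, 520 and 365 CPM in Kitaake, against 11.9, 19.8 and 7.18 CPM in Nipponbare (4.89 ± 0.44, adjusted p = 0.00063). WRKY53 (LOC_Os05g27730) had 487, 747 and 521 CPM in Kitaake, against 124, 137 and 114 CPM in Nipponbare (2.22 ± 0.22, adjusted p = 0.00092). LOC_Os07g48260, another WRKY gene, had a log2 fold change of 2.89. Without Kitaake replicate 2 the list held 3 called genes. WRKY24, WRKY53 and LOC_Os07g48260 kept their call with every library left out, while WRKY76 (LOC_Os09g25060, 1.90) lost it without Kitaake replicate 1 or 2 and WRKY7 (LOC_Os05g46020, 2.00) without Kitaake replicate 2, Kitaake replicate 3 or Nipponbare replicate 2 (adjusted p up to 0.065 and 0.10).

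Among genes tied to jasmonate, JAZ6 and a P450 gene were higher in Kitaake. The jasmonate-induced protein gene LOC_Os12g09720 went the other way, with no count in Kitaake, as given below. JAZ6, a repressor of jasmonate responses that jasmonate itself induces, had 695, 736 and 585 CPM in Kitaake, against 227, 232 and 263 CPM in Nipponbare (1.48 ± 0.18, adjusted p = 0.0021). JAZ11 had 18.0, 48.6 and 35.5 CPM in Kitaake, against 21.4, 12.96 and 10.9 CPM in Nipponbare, and was not called (adjusted p = 0.071). CYP94C20 (LOC_Os12g05440), named for a family whose Arabidopsis members oxidise the active jasmonate, had 5.66, 25.4 and 6.42 CPM in Kitaake, against 0.553, 0.852 and 0.957 CPM in Nipponbare (3.98 ± 0.66, adjusted p = 0.0068). It was the 1 P450 gene called higher.

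Heat shock genes split. Of 27 tested, 12 were called higher and 5 lower, with a median log2 fold change of 1.29. From 8 to 13 were higher when a library was left out, and the lower count was 8 without Nipponbare replicate 3, 3 without Nipponbare replicate 2 and 2 without any 1 of the Kitaake libraries. Of the 32 paired heat shock genes, 19 were on the OsbZIP62V list only, where 16.4% of tested genes were higher and 41.4% lower. The heat shock counts were not tested against these shares. HSP82-like LOC_Os08g39140, a chaperone of the HSP90 family, had 64.0, 44.0 and 38.8 CPM in Kitaake, against 13.9, 16.8 and 13.2 CPM in Nipponbare (1.73 ± 0.23, adjusted p = 0.0029). The DnaJ gene LOC_Os04g57880, a co-chaperone, had 14.5, 17.5 and 15.9 CPM in Kitaake, against 1.44, 1.76 and 0.547 CPM in Nipponbare (3.65 ± 0.39, adjusted p = 0.0012). Heat stress factor A-4d (LOC_Os05g45410) was also higher (1.92), and the factors C-1a (LOC_Os01g43590) and C-2a (LOC_Os02g13800) were lower (-4.52 and -2.33). All 5 kept their call with each library left out. In OsbZIP62V against osbzip62 the HSP82-like gene was called in the opposite direction, with 9.84, 15.8 and 11.05 CPM in OsbZIP62V, against 68.9, 35 and 68.5 CPM in osbzip62 (-2.23, adjusted p = 0.0091). The heat stress factor HSFA2c had 1.70, 1.37 and 2.04 CPM in Kitaake, against 0.609, 0.365 and 0.684 CPM in Nipponbare (adjusted p = 0.034), and its call was lost in 5 of the 6 fits without 1 library, all but that without Nipponbare replicate 3 (adjusted p up to 0.15).

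The largest increases among annotated genes had little or no signal in Nipponbare. A protein kinase gene (LOC_Os09g19229) had 13.7, 14.7 and 14.9 CPM in Kitaake and 2 counts over the Nipponbare libraries, a 358-fold higher level in Kitaake (95% interval from counting error 98.7 to 2961). A pair of carbonic anhydrase genes with neighbouring numbers, for the enzyme that interconverts CO2 and bicarbonate, were both higher. LOC_Os08g32750 had 47.0, 32.2 and 30.7 CPM in Kitaake, against 0, 0.304 and 0.615 CPM in Nipponbare (6.93 ± 0.66, adjusted p = 0.00078). LOC_Os08g32780 had 30.7, 24.1 and 30.4 CPM in Kitaake, against 0.0553, 0.0608 and 0.684 CPM in Nipponbare (6.78 ± 0.65, adjusted p = 0.00082). A gene with a plastocyanin-like domain (LOC_Os08g37660) had 163, 297 and 222 CPM in Kitaake, against 7.30, 5.29 and 1.23 CPM in Nipponbare (5.6 ± 0.61, adjusted p = 0.0013). The groups overlapped for none of these 4 genes, and each call stood with every library left out. The HOTHEAD-like gene LOC_Os02g45530, from a family of oxidoreductases, had 7.25, 7.70 and 5.07 CPM in Kitaake, against 0, 0.182 and 0.547 CPM in Nipponbare (4.80 ± 0.74, adjusted p = 0.0051, and 0.053 without Kitaake replicate 2).

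At high levels, cytosolic ascorbate peroxidase 2 (LOC_Os07g49400), which removes hydrogen peroxide, had 1160, 875 and 765 CPM in Kitaake, against 140, 155 and 188 CPM in Nipponbare (2.53 ± 0.24, adjusted p = 0.00076). A prolyl endopeptidase gene (LOC_Os04g47360) had 1423, 1274 and 1319 CPM in Kitaake, against 324, 150 and 289 CPM in Nipponbare (2.39 ± 0.31, adjusted p = 0.0027). The vacuolar cation/proton exchanger CAX1a (LOC_Os01g37690), which loads calcium into the vacuole, had 1397, 1202 and 1142 CPM in Kitaake, against 178, 251 and 567 CPM in Nipponbare, where replicate 3 lay nearest to Kitaake. Its call (1.91 ± 0.42, adjusted p = 0.018) was lost without any 1 of the Kitaake libraries or Nipponbare replicate 2, with adjusted p up to 0.084.

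**Figure D2:**
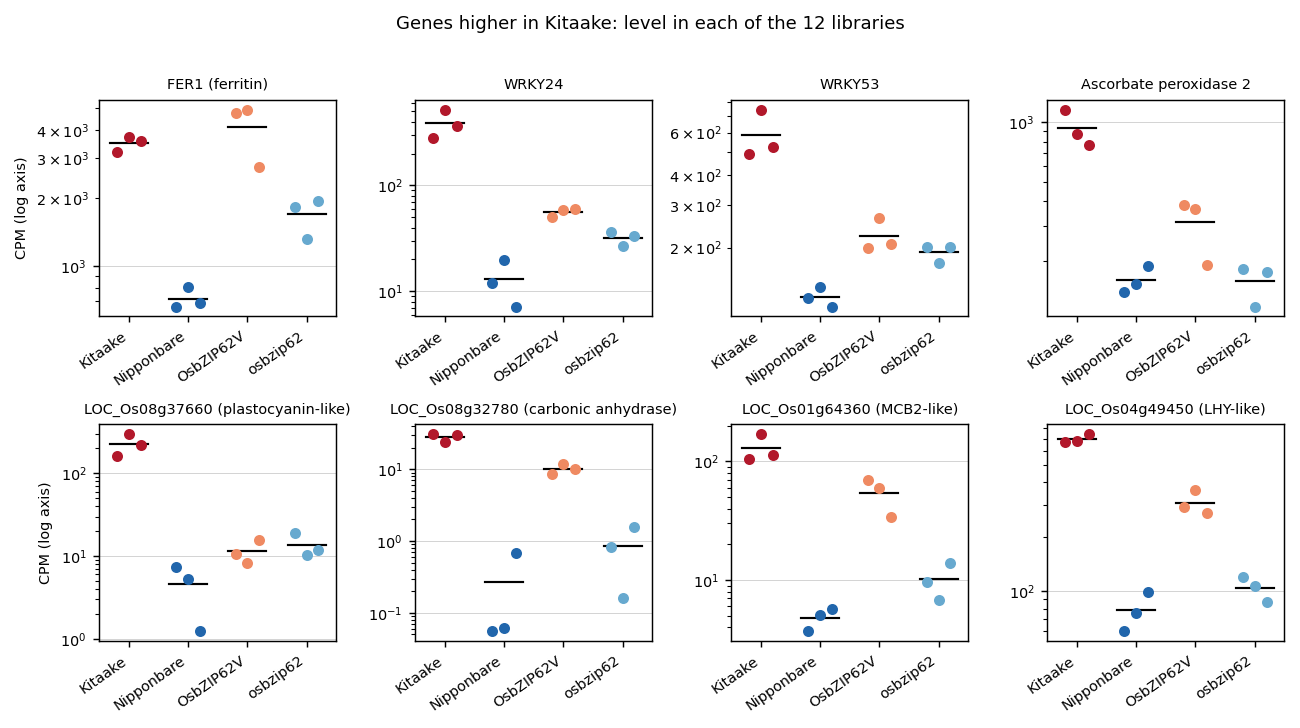
Level in CPM, on a log axis, of 8 genes that were higher in Kitaake, with 1 point per library and a bar at the mean of each group. In every panel the 3 Kitaake libraries lie above the 3 Nipponbare libraries; the MCB2-like and LHY-like genes are also higher in OsbZIP62V than in osbzip62, and WRKY53 and the plastocyanin-like gene were not called there.

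Of 22 abscisic acid and drought genes on the list, 10 were tested, 5 were called lower in Kitaake and 1 higher, with a median log2 fold change of -1.12. Without Kitaake replicate 1, Kitaake replicate 2 or Nipponbare replicate 2 the lower count was 2, and without Kitaake replicate 3 it was 3. All 14 paired genes of this list were on the OsbZIP62V list, 5 of them also on the osbzip62 list. Of all tested genes on the OsbZIP62V list only, 16.4% were higher and 41.4% lower, and of those on both lists 15.2% and 39.0%. The transcription factor bZIP23, an activator of abscisic acid responses, had 10.98, 16.95 and 13.03 CPM in Kitaake, against 42.5, 58.4 and 53.3 CPM in Nipponbare (-1.91 ± 0.21, adjusted p = 0.0014). Its relative bZIP46 had 1.13, 1.18 and 1.44 CPM in Kitaake, against 5.20, 3.16 and 2.26 CPM in Nipponbare (adjusted p = 0.035). PP2C09, a protein phosphatase of the family that restrains abscisic acid signalling, had 65.0, 74.6 and 53.6 CPM in Kitaake, against 147, 241 and 268 CPM in Nipponbare (-1.77 ± 0.26, adjusted p = 0.0039). Its family members PP2C49 (-2.85, adjusted p = 0.017) and PP2C68 (-1.07, adjusted p = 0.049) were lower, and PP2C30 was not called (0.48, adjusted p = 0.36). ABA8OX3, which breaks abscisic acid down, had 82.5, 112 and 100.03 CPM in Kitaake, against 9.13, 23.1 and 51.7 CPM in Nipponbare (1.81 ± 0.53, adjusted p = 0.0496). The calls of bZIP23 and PP2C09 stood with every library left out; those of bZIP46, PP2C49, PP2C68 and ABA8OX3 were lost without any 1 of the Kitaake libraries and without Nipponbare replicate 2, that of bZIP46 also without Nipponbare replicate 1 and that of PP2C68 also without Nipponbare replicate 3 (adjusted p up to 0.15, 0.099, 0.17 and 0.17). P5CS1, of proline synthesis, had an adjusted p of 0.010 and a log2 fold change just under the fold minimum (-0.998 ± 0.19). OsbZIP62, the gene the study altered, was hardly read in either cultivar, at 0.0995 to 0.453 CPM in Kitaake and 0.0684 to 0.852 CPM in Nipponbare, and did not pass the filter; in OsbZIP62V it had 808 to 1173 CPM, in keeping with its label. RAB21 and LEA3, late markers of dehydration, did not pass either.

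**Figure D3:**
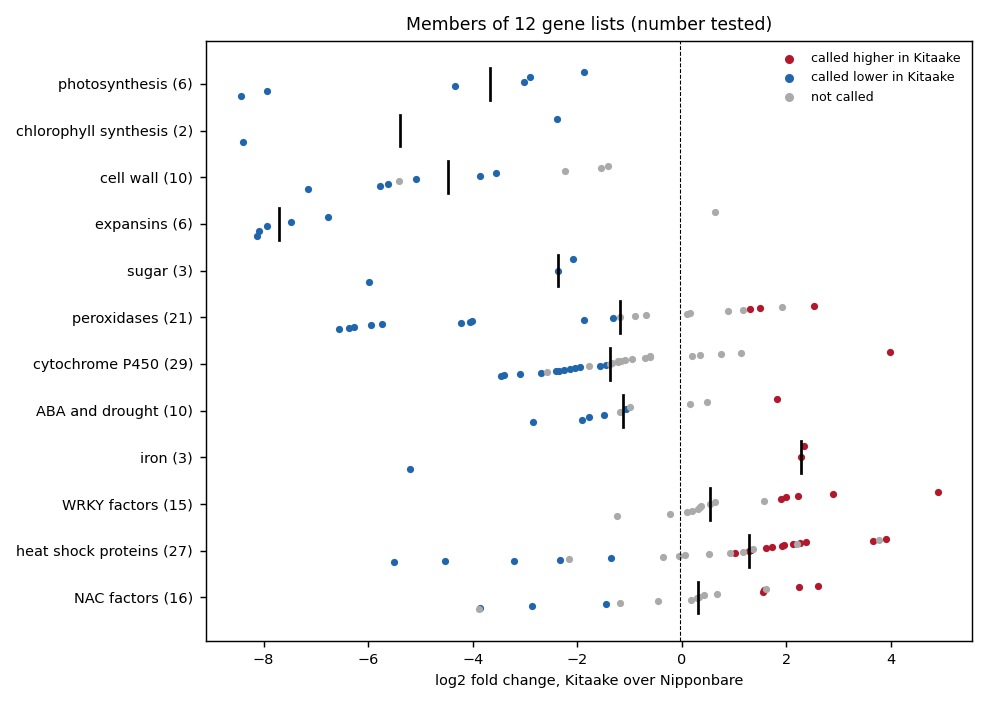
Log2 fold change, Kitaake over Nipponbare, of each tested member of 12 gene lists, with 1 point per gene, a bar at the median of the list and a dashed line at the median of all genes tested (-0.04). All photosynthesis and chlorophyll synthesis members lie left of the line, and 12 of 27 heat shock members and 5 of 15 WRKY factors are called higher.

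The same cultivar contrast could be read a second time in libraries that the first does not use, OsbZIP62V against osbzip62, where Kitaake and Nipponbare backgrounds also differ by the transgene and the mutation, which cannot be told apart from cultivar. The OsbZIP62V libraries were less alike (Spearman correlations of 0.889 to 0.959) than the osbzip62 libraries (0.967 to 0.981). OsbZIP62V replicate 3 resembled Nipponbare more than Kitaake, with mean correlations of 0.897 and 0.858, replicate 1 resembled both equally (0.911 each), and replicate 2 was nearer to Kitaake (0.9603, against 0.883 with Nipponbare). The summed level of the 10 cell wall genes was 1233.9, 276 and 2236 CPM in OsbZIP62V replicates 1 to 3, against 350, 914 and 203 CPM in osbzip62. There, 501 genes were called higher and 637 lower in OsbZIP62V (2.41% and 3.07% of 20775 tested, 5.48% together). DESeq2 called 1012 higher. The counts also rested on single libraries: 1198 were higher without OsbZIP62V replicate 2, 201 without OsbZIP62V replicate 1, and 151, 274 and 189 without osbzip62 replicates 1, 2 and 3, and 332 were lower without OsbZIP62V replicate 1 and 266, 356 and 274 without osbzip62 replicates 1, 2 and 3. Over 19451 genes tested in both, 206 were called higher in both contrasts and 347 lower in both. The count of higher genes was 283 without OsbZIP62V replicate 3, 186 without OsbZIP62V replicate 2, 99 without OsbZIP62V replicate 1, 83, 108 and 103 without osbzip62 replicates 1 to 3, and 134 without Kitaake replicate 2. The count of lower genes was 370 without OsbZIP62V replicate 3, 230 without OsbZIP62V replicate 1, 187, 227 and 191 without osbzip62 replicates 1 to 3, and 228 without Kitaake replicate 2. By DESeq2, 317 genes were higher in both. With every library, the shared genes are 15.9% of the genes called higher between the wild types and 44.8% of those called higher between the transgenic lines, and 21.3% and 60.3% for the lower genes. Another 7 genes called higher in Kitaake were called lower in OsbZIP62V, and 8 the reverse. Across genes the log2 fold changes of the 2 contrasts had a Pearson correlation of 0.49 (n = 19451 genes, which are not independent replicates).

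Large differences recurred more often than small ones. Recurrence here is a call in the second contrast, and a larger difference passes the threshold for a call more easily. How much of the gradient comes from that was not tested. Of the genes tested in both contrasts with a difference over 32-fold between the wild types, 53 of 62 higher genes (85.5%) and 129 of 236 lower genes (54.7%) were called in the same direction between the transgenic lines. Lower genes that recurred were tighter in Nipponbare than those that did not, with a median SD of log2 CPM of 0.35 against 0.62, a difference that was not tested. Their log2 fold changes had medians of -3.08 between the wild types and -2.76 between the transgenic lines, while the 1285 lower genes that did not recur had medians of -2.09 and -0.02. Among higher genes the spread in Nipponbare was 0.38 for those that recurred and 0.39 for those that did not, and the 1092 that did not recur had a median of 1.60 between the wild types and 0.35 between the transgenic lines. In 666 genes all 6 libraries of Kitaake background lay above all 6 of Nipponbare background, and in 1105 below (3.04% and 5.05% of 21878 genes).

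**Figure D4:**
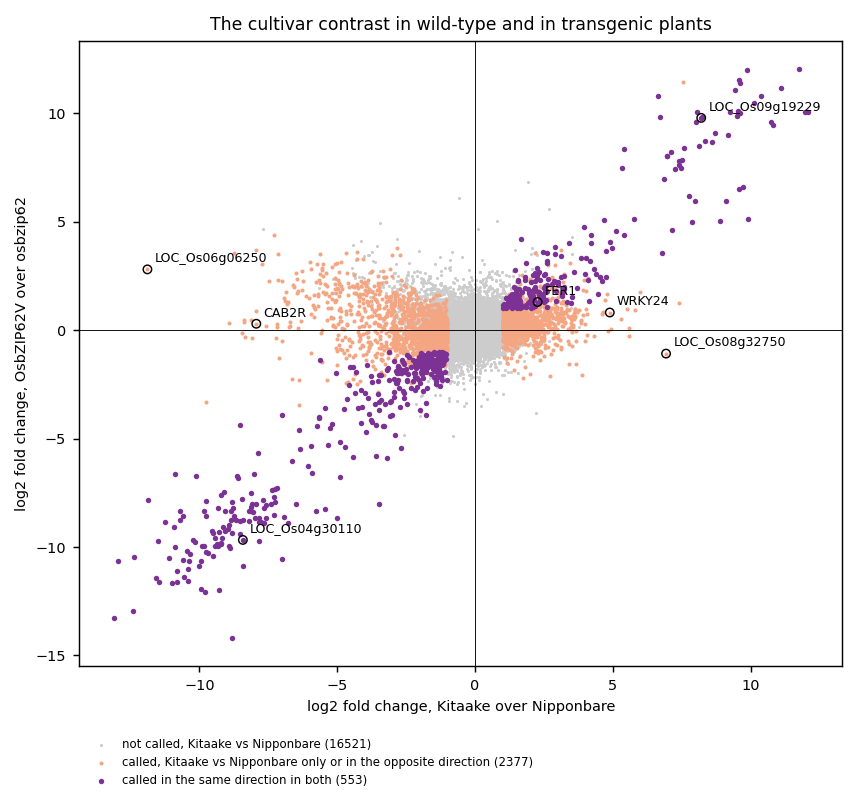
Log2 fold change of each of the 19451 genes tested in both contrasts, Kitaake over Nipponbare on the horizontal axis and OsbZIP62V over osbzip62 on the vertical axis, coloured by the calls. Genes called in both (206 higher, 347 lower) run along the diagonal, and CAB2R (-7.93 and 0.29) and LOC_Os08g32750 (6.93 and -1.09) lie near the horizontal axis.

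Some kinase genes and 1 resistance gene were among the largest differences found in both contrasts. The kinase gene LOC_Os09g19229 had 4.67, 5.64 and 7.31 CPM in OsbZIP62V and no count in osbzip62, as it had next to none in Nipponbare. The wall-associated receptor kinase gene LOC_Os04g30110 had no count in Kitaake, against 2.27, 3.28 and 2.60 CPM in Nipponbare, and no count in OsbZIP62V, against 6.12, 5.36 and 4.99 CPM in osbzip62. It was at least 40.6-fold lower in Kitaake. The kinase gene LOC_Os02g40200 and the jasmonate-induced protein gene LOC_Os12g09720 also had no count in Kitaake and were at least 26.3-fold and 32.4-fold lower. The resistance gene LOC_Os11g39160, of the NB-ARC class that senses pathogen effectors, had no count in Kitaake or OsbZIP62V, against 0.752 to 1.16 CPM in Nipponbare and 1.79 to 4.25 CPM in osbzip62. It was at least 14.4-fold lower in Kitaake. LOC_Os04g53820, known only by a clone name, had 0, 0.0621 and 0.199 CPM in Kitaake, against 12.1, 15.5 and 16.89 CPM in Nipponbare. All 6 of these genes kept their call between the wild types with each library left out. By family, of 22 tested receptor-like kinases 7 were higher and 10 lower, and of 17 tested NB-ARC genes 2 were higher and 1 was lower. Of all tested genes with a locus, 17.5% were higher and 32.8% lower, so in this fit NB-ARC genes were called less often than named genes in general. Counts of NB-ARC genes depended on the fit, as given below. In both contrasts, 3 of the receptor-like kinases and 1 of the NB-ARC genes were called in the same direction. The lower count of NB-ARC genes was 6 by DESeq2, 7 in the fit of all 12 libraries and 4 without a filter on low counts. Without Nipponbare replicate 3, 9 NB-ARC genes were lower, and without any 1 of the Kitaake libraries none was higher. The number of receptor-like kinases called lower was 3 without Kitaake replicate 2 and 4 without Kitaake replicate 1 or replicate 3, and the number called higher was 4 without Kitaake replicate 2.

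Genes of other kinds were also called in both contrasts. An LHY-like MYB gene (LOC_Os04g49450), from a family of morning-phased clock regulators, had 666, 675 and 739 CPM in Kitaake, against 59.9, 76.0 and 98.5 CPM in Nipponbare (3.15 ± 0.24, adjusted p = 0.00035), and 292, 363 and 272 CPM in OsbZIP62V, against 119, 106 and 87.4 CPM in osbzip62 (1.58, adjusted p = 0.0041). The MCB2-like gene LOC_Os01g64360, also of the MYB class, had 106, 169 and 114 CPM in Kitaake, against 3.71, 5.05 and 5.74 CPM in Nipponbare (4.74 ± 0.27, adjusted p = 0.00014). LOC_Os04g30010, known only by a clone name, had 5.77, 6.58 and 6.07 CPM in Kitaake, against 0.387, 0.243 and 0.205 CPM in Nipponbare (4.40 ± 0.35, adjusted p = 0.00042). Among the lower genes, a phosphoethanolamine methyltransferase gene (LOC_Os05g47540), of phosphocholine synthesis, had 48.9, 43.7 and 40.2 CPM in Kitaake, against 306, 372 and 225 CPM in Nipponbare (-2.78 ± 0.23, adjusted p = 0.00049), and a log2 fold change of -1.98 in OsbZIP62V (adjusted p = 0.0018). The NAC gene LOC_Os09g33490 had 7.25, 9.50 and 5.92 CPM in Kitaake, against 56.6, 55.0 and 52.5 CPM in Nipponbare (-2.86 ± 0.20, adjusted p = 0.00032). OsACO2 (LOC_Os09g27750), which makes ethylene, had 42.9, 26.4 and 18.1 CPM in Kitaake, against 61.4, 111 and 127 CPM in Nipponbare (-1.79 ± 0.37, adjusted p = 0.015, and up to 0.10 without Kitaake replicate 2, Kitaake replicate 3 or Nipponbare replicate 2).

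The antenna, wall and sugar genes were not called a second time: none of the 6 photosynthesis, 10 cell wall or 3 sugar genes was called between OsbZIP62V and osbzip62. Their median log2 fold changes there were -0.43, 1.91 and -0.24. Of the paired genes, 5 photosynthesis, 9 cell wall and 3 sugar genes were on the OsbZIP62V list only, and 1 cell wall and 1 sugar gene on both lists. Those genes were thus named for a difference between OsbZIP62V and Kitaake, so the missing calls are not independent of how they were chosen. Without OsbZIP62V replicate 2, whose levels of these genes were lowest, 3 cell wall genes and 1 sugar gene were called higher in OsbZIP62V. Without osbzip62 replicate 2 the sugar median was 0.091. CAB2R had 1494, 44.1 and 2298 CPM in OsbZIP62V, against 670, 2126 and 361 CPM in osbzip62, with replicate 2 of OsbZIP62V near the Kitaake level. The difference between the 2 contrasts was itself tested as an interaction in 1 edgeR fit of all 12 libraries, where 1553 of 21878 genes (7.10%) had an adjusted p under 0.05. For CAB2R it was -8.21 on the log2 scale (adjusted p = 0.032), and for LHCB2 -1.60 (adjusted p = 0.034). WRKY24 also differed (4.10, adjusted p = 0.0023), and the carbonic anhydrase gene LOC_Os08g32750 (8.02, adjusted p = 0.0023), whose neighbour LOC_Os08g32780 was called higher in both contrasts (3.55 in OsbZIP62V, adjusted p = 0.020). For FER1 the interaction missed the threshold (0.99 ± 0.35, adjusted p = 0.096), with 4739, 4909 and 2735 CPM in OsbZIP62V, against 1824, 1318 and 1943 CPM in osbzip62. Each gene named here was paired through the study's lists, whose differences between a line and its wild type make up the interaction. These interaction p-values are therefore not independent of the naming.

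A few genes were read in 1 cultivar only. With no count in any Nipponbare library and at least 10 CPM in every Kitaake library there were 5 genes, and with the cultivars exchanged there were 14. None of the 19 was paired with a locus. Each had at most 3 counts in every transgenic library of the background that lacked it. OS06G0215900 had 36.7, 39.8 and 26.6 CPM in Kitaake, at least 546-fold higher than in Nipponbare, and 26.04, 25.98 and 27.4 CPM in OsbZIP62V. OS09G0355400 had 25.0, 28.8 and 41.4 CPM in Kitaake, at least 551-fold higher. OS08G0413500 had 60.7, 75.3 and 74.3 CPM in Nipponbare and was at least 1045-fold lower in Kitaake, and OS09G0319701 had 59.6, 79.4 and 50.5 CPM in Nipponbare and was at least 954-fold lower in Kitaake.

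Called genes were spread over all chromosomes, unevenly. The share called higher ran between 4.51% on chromosome 12 and 8.71% on chromosome 11, and the share called lower between 6.86% on chromosome 2 and 11.1% on chromosome 11. In windows of 50 tested genes in identifier order, the median was 7 called genes, over 389 full windows, and the highest was 21, in window 20 of chromosome 11. Of those 21, 14 were called in the same direction between the transgenic lines, against a median of 1 per window. Windows 19 and 21 of chromosome 6 held 19 called genes each, 7 and 11 of them recurring, and windows 5 and 6 of chromosome 9 held 17 and 14, with 7 and 12 recurring. Many called genes did not always go with many recurring ones: window 4 of chromosome 1 held 17, 1 of them recurring, and window 16 of chromosome 10 held 14, none of them recurring. Kinase gene LOC_Os09g19229 belongs to chromosome 9. The NB-ARC gene LOC_Os11g39160 lies in window 17 of chromosome 11, outside window 20, and window 17 held 12 called genes, 7 of them recurring.

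**Figure D5:**
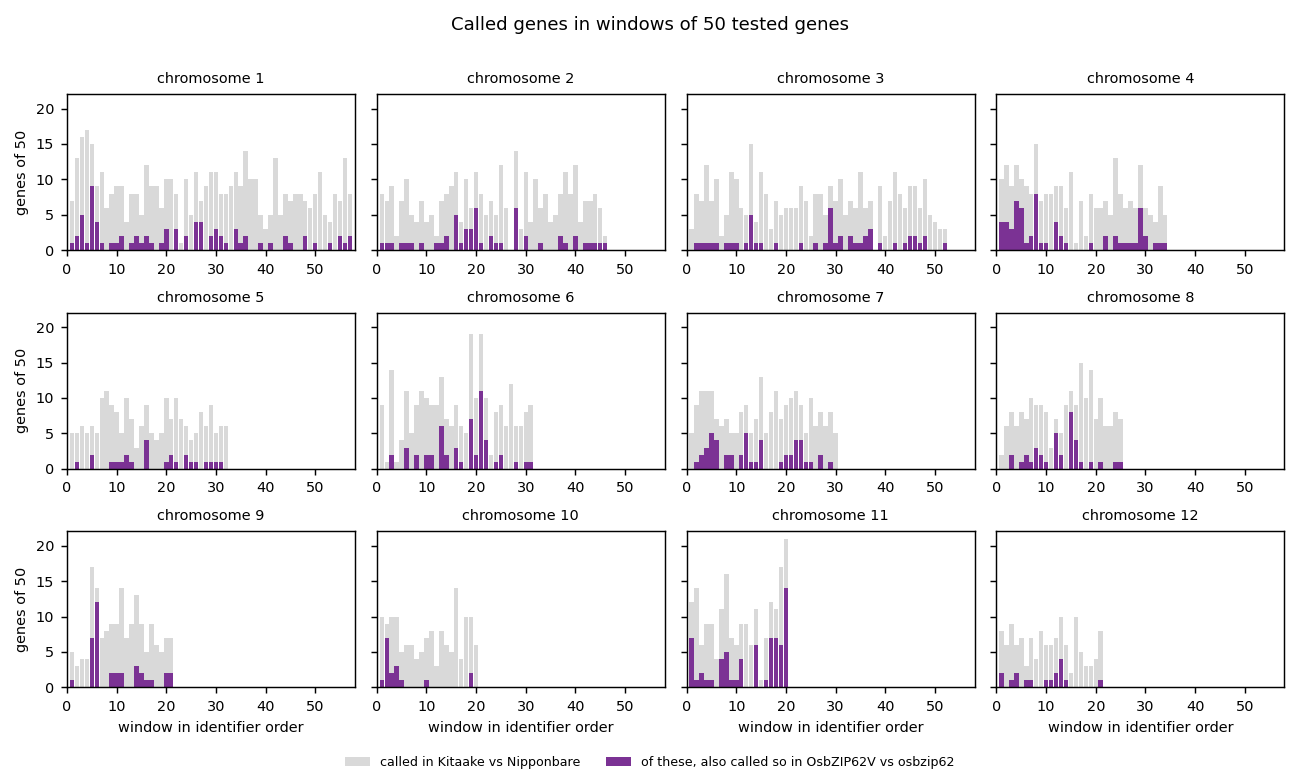
Number of called genes in each window of 50 tested genes, in identifier order along the 12 chromosomes, in grey for Kitaake against Nipponbare and in purple for those also called in the same direction between OsbZIP62V and osbzip62. The tallest bar stands on chromosome 11 (21 called, 14 recurring), followed by chromosome 6 (19 called in each of 2 windows), and a bar of 17 on chromosome 1 holds 1 recurring gene.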

How the data were processed

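Leaf RNA was sequenced from TruSeq libraries. Per the labels and methods, the authors trimmed reads with SeqPrep and Sickle, aligned them to IRGSP-1.0 with HISAT2 2.1.0 (Bowtie2 2.2.3 is also listed) and made the deposited raw counts with HTSeq 0.6.1p2. No source used here names the annotation release or the strand setting. The authors' RPKM values, with fold changes printed in the study's lists, served only to pair identifiers with loci. The counts of Kitaake and Nipponbare were fitted with edgeR 4.0.16 (filterByExpr, TMM, quasi-likelihood test) in R 4.3.3, with Benjamini-Hochberg adjustment over all genes tested and no replicate block, OsbZIP62V and osbzip62 likewise, and the interaction over all 12 libraries, which also set the TMM factors of the CPM values. Where a cultivar had no count, 3 counts over its group set the bound. Ratios over 1 to 3 counts have exact 95% intervals that cover counting error only. Replicates differed beyond sampling noise, and p-values measure the spread between pools. Scripts were tested on simulated data. DESeq2 1.42.0, other scalings and filters, a replicate block and leaving out each library were tried. The members and gene lists were chosen with earlier results of these data known. The naming rule took, per direction, called annotated genes whose groups did not overlap (the 8 largest changes at 5 CPM or more, the 4 highest levels, the 4 largest called in both contrasts), called members of the locus lists, genes read in 1 cultivar only, and OsbZIP62.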

Additional observations from a re-analysis of the deposited data

Results flagged for a closer look

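Of the 53 called genes named by rule, 28 had a difference between the cultivar contrast of the wild types and that of the transgenic lines (Kitaake over Nipponbare, less OsbZIP62V over osbzip62, on the log2 scale) with an adjusted p between 0.0023 and 0.048 in the interaction test of edgeR. These genes were named for their size or call between the wild types, values that also enter the difference, so the choice of genes favours a difference of that sign, and the count is a description. All 28 could be named only through the study's lists of genes that differed between a line and its wild type. Those differences make up the one tested here, so neither the count nor the adjusted p-values are independent evidence of it. Antenna and chlorophyll genes were further below 0 between the wild types: CAB2R by -8.21, LHCB1.3 by -8.26, LHCB2 by -1.60, LHCB4 by -2.39, LHCB6 by -3.20, LHCA1 by -1.99, the photosystem I subunit O gene LOC_Os04g33830 by -1.45 and PORB by -2.61. In wall and sugar genes the difference was -8.59 for expansin gene LOC_Os10g40720, -7.72 for LOC_Os05g39990 and -8.80 for LOC_Os01g60770, -10.64 for MYB61, -9.10 for SUS1 and -1.67 for LOC_Os02g01590. The GDSL lipase gene LOC_Os06g06250 had -14.70, with 58.4, 0.745 and 352 CPM in OsbZIP62V and 24.2, 29.9 and 5.21 CPM in osbzip62.

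Abscisic acid genes differed by -1.87 for bZIP23, -1.98 for bZIP46, -2.24 for PP2C09, -3.51 for PP2C49 and -2.32 for PP2C68. The last was lower in Kitaake (-1.07) and higher in OsbZIP62V (1.26, adjusted p = 0.018). LOC_Os04g53820, low in both contrasts, had -3.12. On the other side WRKY24 had 4.10, LOC_Os08g32750 8.02, LOC_Os08g37660 5.87, JAZ6 1.73, HSFA2c 1.93, LOC_Os01g64360 2.32 and LOC_Os04g30010 1.85. Transgene, mutation and sowing cannot be told apart from one another in these differences.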

How the results depend on the processing

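With 1 library left out, the genes called between Kitaake and Nipponbare numbered 597 to 1801 higher and 513 to 3113 lower, and those between OsbZIP62V and osbzip62 151 to 1198 higher and 266 to 736 lower. Genes called in both contrasts numbered 83 to 283 higher and 187 to 370 lower, a check chosen after seeing the data. The cause was not tested. DESeq2 called 1012 genes higher in OsbZIP62V and 317 genes higher in both contrasts. Same-numbered Kitaake and Nipponbare libraries did not deviate together (correlations of 0.021, 0.080 and 0.061), nor did OsbZIP62V and osbzip62 libraries (-0.088, -0.57 and -0.36), so the numbers pair neither. With a replicate block 1236 genes were higher and 1387 lower in Kitaake, and 51 higher and 88 lower in OsbZIP62V. At 5 CPM or more, 11 genes were read in Kitaake only and 32 in Nipponbare only. DESeq2 (1539 higher, 2423 lower), other size factors (1372, 1634), library totals (1487, 1365), no filter (1308, 1573), a strict filter (1017, 1164) and the fit of all 12 libraries (1497, 1997) stayed within a factor of 1.5 of the counts reported, while the higher share of all calls ran between 38.8% by DESeq2 and 52.1% by library totals. Of 53 called genes named by rule, 29 kept their call with each library left out. With the replicate block 4 lost it, HSFA2c (adjusted p = 0.059), PAL1 (0.10), SUS1 (0.056) and bZIP46 (0.078). With no filter 6 lost it (ABA8OX3, CESA7, CESA9, HSFA2c, PP2C68 and bZIP46), with library totals 3 (CESA7, PP2C68 and bZIP46), with other size factors 2 (ABA8OX3 and PP2C68), in the fit of all 12 libraries 1 (SWN2), and none of the 51 given an adjusted p by DESeq2. DSM2 (-0.026 to 0.40), F5H (-1.92 to 0.20) and MADS18 (-0.19 to 0.39), not called in the fits reported, changed sign when a library was left out. Groups of 3 libraries and few counts limit what can be called at low levels.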

Other observations

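Most ribosomal protein genes that could be named lay below 0 between the wild types, few of them past the test. Of 29 tested, 28 had a negative log2 fold change, 3 were called lower in Kitaake and none higher, and the median was -0.60, against -0.04 over all genes. The lower count was 10 without Nipponbare replicate 3, 1 without Nipponbare replicate 1 and 0 without Nipponbare replicate 2 or any 1 of the Kitaake libraries. In OsbZIP62V against osbzip62, 13 were called higher and none lower, with a median of 1.08. That higher count was 23 without OsbZIP62V replicate 2, 4 without OsbZIP62V replicate 1 and 0 without osbzip62 replicate 1 or replicate 3. All 29 were paired through the list drawn from Nipponbare and osbzip62 libraries, so neither count is independent of these data.

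Of 26 tested UDP-glycosyltransferase genes, whose enzymes attach sugars to hormones and defence compounds, 11 were lower in Kitaake and 4 were higher. The lower count was 4 without Kitaake replicate 1 or replicate 2, 6 without Kitaake replicate 3 or Nipponbare replicate 2, and 7 when scaled by library totals. F-box genes, which select proteins for breakdown, had 4 higher and 2 lower of 11, and none lower without Kitaake replicate 2 or replicate 3. NAC transcription factors had 4 higher and 3 lower of 16. Their higher count was 2 without Kitaake replicate 2, and their lower count 1 without Kitaake replicate 2 or replicate 3 and 6 without Nipponbare replicate 3. Of 7 lectin genes, 1 was higher and 4 were lower, with 0, 1 and 1 lower without Kitaake replicates 1 to 3 and 7 lower without Nipponbare replicate 3. None of these lists was tested against the 17.5% higher and 32.8% lower of all genes with a locus.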
